A study of Mus musculus with 8 samples.

Results

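Redox defence genes were followed in mouse common lymphoid progenitors (CLPs), the bone marrow cells that give rise to lymphoid lineages. The set comprised 37 genes of the 39179 gene IDs in each library, picked by symbol, and all 37 were found. It holds the NRF2 regulator with its inhibitor and targets, the glutathione, thioredoxin and peroxiredoxin systems, and the enzymes that remove superoxide and hydrogen peroxide. All cells came from C57BL/6 bone marrow, and RNA was sequenced from 4 libraries of freshly sorted cells (ex vivo CLP) and 4 libraries of cells grown for 2 months (cCLP). The cCLP cells had been kept on OP9, a mouse stromal line, with Flt3 ligand and little IL-7. Both kinds of cell were sorted as lineage-negative, positive for Flk2, the IL-7 receptor and CD27, and negative for Ly6d. The labels name no animal, culture or batch, so each p-value reflects no more than the spread among these libraries, which may be technical.

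Cells make superoxide and hydrogen peroxide as by-products of respiration and through NADPH oxidases. Superoxide dismutases turn superoxide into hydrogen peroxide, which catalase, glutathione peroxidases and peroxiredoxins then remove. Glutathione and thioredoxin supply the electrons and are reduced again by NADPH-dependent reductases, while the transcription factor NRF2, held in check by KEAP1, drives many of these genes. In blood progenitors this network is known for its part in quiescence and in survival outside the marrow.

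The deposited values are whole numbers that do not behave as read counts, so the depth is unknown. They summed to between 378594 and 704305 per library. Levels below are scaled values, meaning the deposited value divided by a library factor, unless they are called deposited. Before any result, 2 libraries stood against their labels. With the 37 genes left out, the library labelled ex vivo CLP 2 had Spearman correlations across tested genes of 0.959 to 0.986 with cCLP 2, 3 and 4, against 0.737 to 0.800 with ex vivo CLP 1, 3 and 4. The library labelled cCLP 1 had correlations of 0.947 to 0.979 with ex vivo CLP 1, 3 and 4, against 0.781 to 0.792 with cCLP 2, 3 and 4. On an axis from 0 (mean of ex vivo CLP 1, 3 and 4) to 1 (mean of cCLP 2, 3 and 4), the 25 tested redox genes alone placed ex vivo CLP 2 at 1.02 and cCLP 1 at 0.10. Genes are not replicates, so these values carry no test. Fold changes are therefore given both over the 8 libraries as labelled and over the 6 libraries without this pair, while means and intervals of single genes are over the 6. The pair was picked from measured profiles, so p-values over 6 libraries hold only given that choice.

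Genes of the sort gate and of the CLP stage were not level between the groups. Of 9 such genes, 3 rose and 4 fell over the 6 libraries by limma, beside 20.8% higher and 22.2% lower among 6573 tested genes. Only genes with scaled values of 10 or more in 3 of the 6 libraries were tested. Ly6a, Ly6d and Rag1 were below 10 in each library of a group, so this filter fixed their direction. Rag2 and Kit reached 10 throughout only the group where they were high, so their calls are not independent of the filter. Flt3, which encodes Flk2, had deposited values of 171 to 333 over the 8 libraries. Il7r, the IL-7 receptor gene, had 61, 14 and 24 for ex vivo CLP 1, 3 and 4 and 28 for cCLP 1, against 193 for ex vivo CLP 2 and 204 to 256 for cCLP 2, 3 and 4. Ly6d, whose product the sort excludes, had 28, 28 and 41 for ex vivo CLP 1, 3 and 4 and 22 for cCLP 1, against 0 or 1 in the other 4 libraries. The recombinase genes Rag1 and Rag2 rose with Il7r, and Ly6a, Dntt and Kit fell with Ly6d. Myeloid markers also set the libraries apart. The summed scaled value of 15 myeloid markers was 1450, 3238 and 3081 for ex vivo CLP 1, 3 and 4 and 1749 for cCLP 1, with all 15 above 0. It was 249.9 for ex vivo CLP 2 and 351 to 396 for cCLP 2, 3 and 4, with 6 of 15 above 0 and the granule genes Elane and Ctsg at 0. Of 14 tested over the 6 libraries, 13 fell and 1 rose (Fcgr3). The filter fixed the direction of each that fell except Mpo. Fcgr3 reached 10 throughout only cCLP 2, 3 and 4, where it was high, so its call is not independent of the filter. Fcgr3 had deposited values of 1, 16 and 20 for ex vivo CLP 1, 3 and 4 and 3 for cCLP 1. It had 73 for ex vivo CLP 2 and 77 to 114 for cCLP 2, 3 and 4, where Mpo still had 245 to 339. Of 10 dendritic markers, 7 fell over the 6 libraries (Cd74, Irf8, H2-Ab1, H2-Aa, Siglech, Itgax and Bst2) and 1 rose (Ccr9). The filter fixed the direction of each of these except Bst2. Irf8 went from a mean of 156.8 to 5.41 and Ccr9 from 6.37 to 242, so the sums of the 10 markers, 716 to 791 for ex vivo CLP 1, 3 and 4 and 580 to 607 for cCLP 2, 3 and 4, hide opposite moves. The 13 erythroid markers summed to 264 to 326 and to 121 to 140.1 in the same libraries. Summed stromal markers lay between 9.89 and 20.01, T cell markers between 10.5 and 29.4, mature B cell markers between 731 and 1342, and CLP and sort gate markers between 1034 and 2862 over the 8 libraries. The B cell sum was mostly Ighm (deposited 728 to 1476) and hides opposite moves. From ex vivo CLP 1, 3 and 4 to cCLP 2, 3 and 4, deposited Cd79b went from 32, 30 and 43 to 1, 2 and 4. Cd79a went from 1, 1 and 1 to 7, 7 and 16, and Ebf1 from 1, 0 and 0 to 7, 6 and 9. The T cell sum was mostly Lat, at 23, 20 and 25 and at 9, 13 and 16 in these libraries. In bulk RNA, fewer cells of a type and less RNA per cell cannot be told apart.

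Over the 8 libraries as labelled, no redox gene passed the test. The test took genes with scaled values of 10 or more in 4 libraries (3 where 6 libraries were fitted), which 25 of the 37 had, and called them at an adjusted p below 0.05. By limma, 0 of the 25 were called, and 0 had an unadjusted p below 0.05. The background was the same, as 0% of 6486 tested genes were called (477 had an unadjusted p below 0.05). Fold changes are cCLP minus ex vivo CLP on a log2 scale after adding 1 to each scaled value, which understates the change of low genes. They ran from -0.77 for Gsr to 0.42 for Mgst3, with a median of -0.11 against -0.0013 over all tested genes. For 20 of the 25 (80%) the 95% confidence interval lay inside 2-fold either way, against 81.4% of all genes. The 37 genes together made up 0.646% ± 0.039 (SD, n = 4) of all deposited values among ex vivo CLPs and 0.607% ± 0.042 among cCLPs, a difference of -0.039 percentage points (exact two-sided permutation p = 0.171, where 0.0286 is the smallest possible). Without the pair of libraries above the shares were 0.655% ± 0.042 (SD, n = 3) and 0.586% ± 0.0093, with an exact permutation p = 0.10, the smallest that 3 against 3 allows. With mitochondrially encoded and ribosomal protein genes left out of the sum, the shares over the 6 libraries were 0.937% ± 0.086 and 0.876% ± 0.036 (exact permutation p = 0.30).

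Over the 6 libraries, 2 redox genes rose in cCLP 2, 3 and 4 (Mgst3 and Cat) and 8 fell (Gstm1, Gsr, Txnip, Glrx, Prdx6, Prdx5, Gstp1 and Hmox2). These are 8% and 32% of the 25 tested, beside a background of 20.8% called higher and 22.2% called lower among 6573 tested genes. The groups did not overlap for 13 of the 25, beside 55.8% of all tested genes. The median fold change of the 25 was -0.18, against 0.0052 over all tested genes. All 15 uncalled members had intervals inside 2-fold. Mgst3 could be tested only through its values in cCLP 2, 3 and 4, where it was high, so its count among the risen genes is not independent of that choice. In ex vivo CLP 2, 9 of the 10 called genes (not Gstp1) and 10 of the 15 uncalled genes lay nearer to the mean of cCLP 2, 3 and 4. In cCLP 1, 10 of 10 and 11 of 15 lay nearer to the mean of ex vivo CLP 1, 3 and 4. Both libraries were set aside for such profiles, so these counts are a description. Over the 8 libraries as labelled, the fold changes of these 10 genes had the same signs, from -0.77 to 0.42, with limma adjusted p of 0.484 to 0.568.

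**Figure D1:**
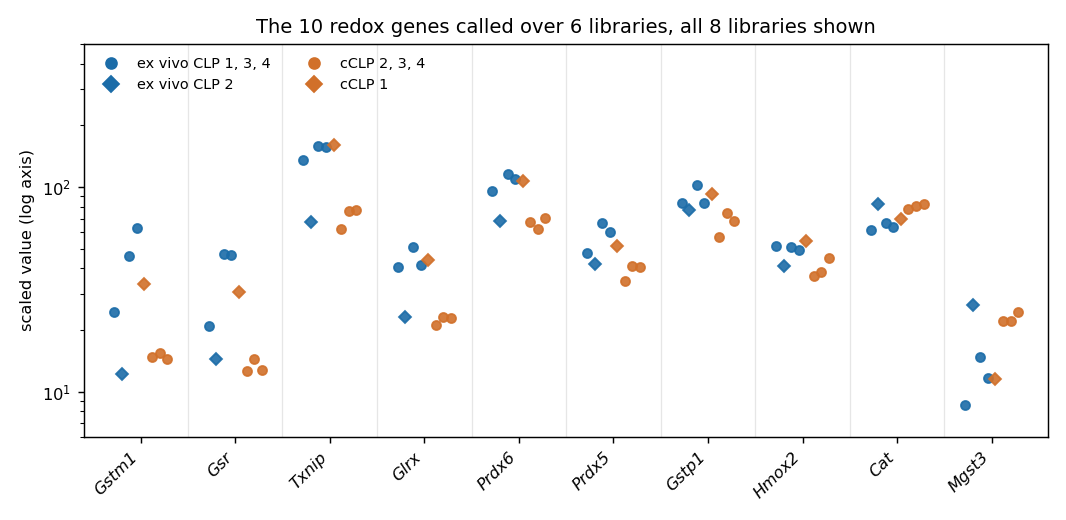
Scaled values (log axis) of the 10 redox genes called over 6 libraries, with 1 point per library and diamonds marking ex vivo CLP 2 and cCLP 1. In 9 of the 10 genes ex vivo CLP 2 sits nearer to cCLP 2, 3 and 4, and in all 10 genes cCLP 1 sits nearer to ex vivo CLP 1, 3 and 4.

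**Figure D2:**
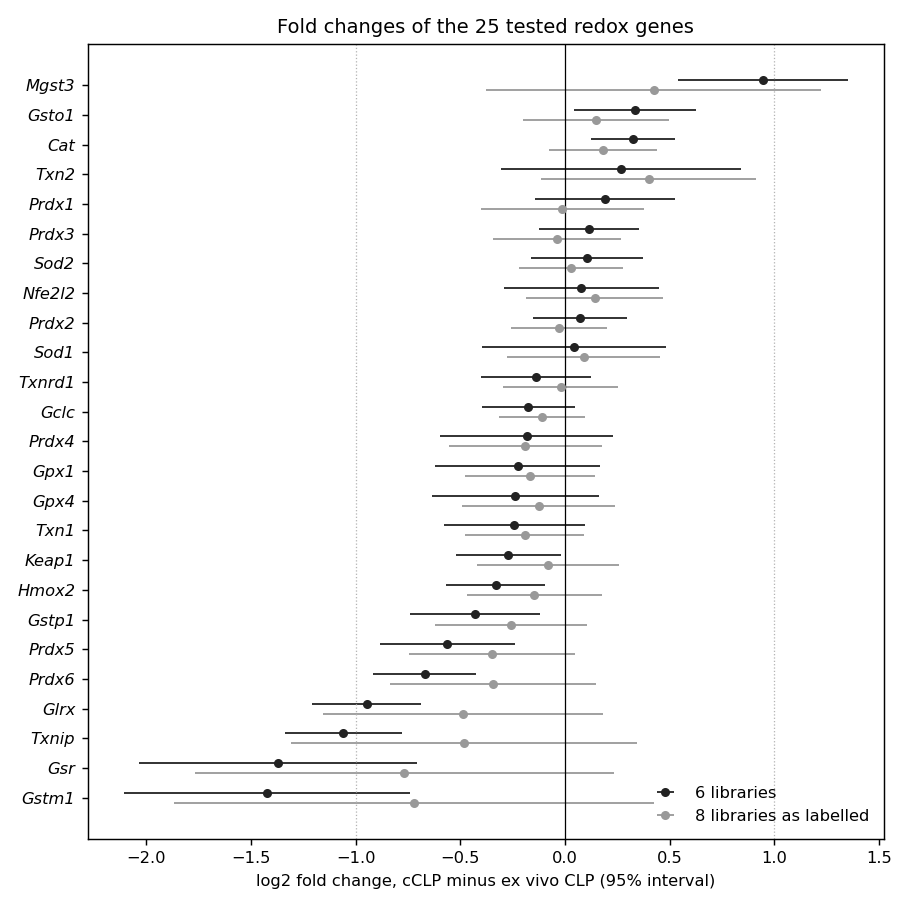
Log2 fold changes (cCLP minus ex vivo CLP) of the 25 tested redox genes, with points for the estimates and bars for 95% confidence intervals, in black over 6 libraries and in grey over 8 libraries as labelled. Dotted lines mark a 2-fold change; over 6 libraries the range runs from -1.42 for Gstm1 to 0.95 for Mgst3.

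The regulator genes Nfe2l2 and Keap1 were not called over the 6 libraries. Nfe2l2, which encodes NRF2, was at 21.5 ± 4.87 (SD, n = 3) across ex vivo CLP 1, 3 and 4 and at 22.4 ± 0.556 across cCLP 2, 3 and 4 (log2 fold change 0.08, 95% interval -0.29 to 0.45, and 0.14 over 8 libraries). Its low value of 15.9 came from ex vivo CLP 1. Keap1, whose product targets NRF2 for degradation, was at 16.9 ± 0.832 and 13.9 ± 1.39 (-0.27, interval -0.52 to -0.02, limma adjusted p = 0.0777, and -0.08 over 8 libraries). Its groups did not overlap over the 6 libraries (15.9 to 17.4 against 12.6 to 15.4). Hmox2, the constitutive haem oxygenase gene (ENSMUSG00000004070, GRCm38 chromosome 16, 4726361 to 4766742, plus strand), was at 51.5, 40.9, 50.7 and 49.4 in ex vivo CLP 1 to 4. Its values in cCLP 1 to 4 were 54.5, 36.9, 38.4 and 44.99. Without ex vivo CLP 2 and cCLP 1 the groups did not overlap, and Hmox2 fell by 0.33 ± 0.10 (SE, n = 3) on the log2 scale (limma adjusted p = 0.0311, and -0.15 ± 0.14 over 8 libraries). That call ended with cCLP 2 left out (adjusted p = 0.112), with cCLP 3 left out (0.113), with ex vivo CLP 3 left out (0.0561) and with total scaling (0.0638). It also ended with a block for replicate number (0.274), a fit that compares only libraries 3 and 4 of each group.

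Among the genes of glutathione synthesis and reduction, the reductase gene was called lower over the 6 libraries. Gsr encodes glutathione reductase, which returns oxidised glutathione to its reduced form (ENSMUSG00000031584, chromosome 8, 33652523 to 33698163, plus strand). Its scaled values were 20.8, 14.4, 47.0 and 46.5 in ex vivo CLP 1 to 4 and 30.6, 12.6, 14.4 and 12.7 in cCLP 1 to 4. Ex vivo CLP 1 was lower than ex vivo CLP 3 by a factor of 2.25, while cCLP 2, 3 and 4 spanned a factor of 1.14, and the groups did not overlap without ex vivo CLP 2 and cCLP 1. Gsr was 2.58-fold lower over 6 libraries (log2 fold change -1.37 ± 0.29, SE, limma adjusted p = 0.00669, and -0.77 ± 0.44 over 8 libraries). Gclc, which encodes the catalytic subunit of the rate-limiting enzyme of glutathione synthesis, was at 26.1 ± 1.83 (SD, n = 3) and 23.0 ± 0.849 (-0.17, interval -0.39 to 0.05, and -0.11 over 8 libraries).

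Of the glutathione peroxidases, Gpx1, the cytosolic hydrogen peroxide scavenger, averaged 1177 ± 234 (SD, n = 3) and 996 ± 88.8 (log2 fold change -0.22, interval -0.62 to 0.17, and -0.17 over 8 libraries). Gpx1 alone held 0.196% to 0.259% of the summed values in each library. Gpx4, which reduces lipid peroxides and protects cells from ferroptosis, was at 149.8 ± 31.8 and 126 ± 18.6 (-0.24, interval -0.64 to 0.16, and -0.13 over 8 libraries). The groups overlapped for both genes.

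Glutathione transferase genes, whose products conjugate glutathione to reactive compounds, moved both ways. Gstm1 (ENSMUSG00000058135, chromosome 3, 108012255 to 108017973, minus strand) was at 24.5, 12.2, 45.7 and 63.2 in ex vivo CLP 1 to 4. It was at 33.5, 14.7, 15.4 and 14.4 in cCLP 1 to 4. As with Gsr, ex vivo CLP 1 was the lowest of ex vivo CLP 1, 3 and 4, and cCLP 2, 3 and 4 lay close together. Gstm1 was 2.68-fold lower (-1.42 ± 0.29, SE, limma adjusted p = 0.00632, and -0.72 ± 0.50 over 8 libraries). Gstp1, the pi class gene, was at 89.8 ± 11.1 (SD, n = 3) and 66.6 ± 9.11 (-0.43 ± 0.13, SE, limma adjusted p = 0.0326, and -0.26 ± 0.16 over 8 libraries). It was no longer called after removal of ex vivo CLP 3 (adjusted p = 0.0805), of ex vivo CLP 4 (0.0526), of cCLP 2 (0.133) or of cCLP 4 (0.0799). A block for replicate number also ended the Gstp1 call (0.0969).

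Mgst3, a membrane-bound transferase gene (ENSMUSG00000026688, chromosome 1, 167371966 to 167393841, minus strand), went the other way. It was at 8.58, 26.5, 14.8 and 11.6 in ex vivo CLP 1 to 4 and at 11.5, 22.1, 22.1 and 24.6 in cCLP 1 to 4. Without ex vivo CLP 2 and cCLP 1 the groups did not overlap, and Mgst3 was 1.93-fold higher (0.95 ± 0.18, SE, limma adjusted p = 0.00339, and 0.42 ± 0.35 over 8 libraries). Of the 2 groups of the 6 libraries, only cCLP 2, 3 and 4 all reached the 10 needed for testing, since ex vivo CLP 1 was below 10. Gsto1, an omega class gene, was at 91.1 ± 12.1 (SD, n = 3) and 114.8 ± 10.95 (0.33, interval 0.04 to 0.62, limma adjusted p = 0.0645, and 0.15 over 8 libraries) and was not called.

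In the thioredoxin system, the gene for the inhibitor fell while the carriers and the reductase were not called. Txnip encodes a protein that binds reduced thioredoxin and blocks it, and that also restrains glucose uptake (ENSMUSG00000038393, chromosome 3, 96557957 to 96561883, plus strand). Scaled values of Txnip were 134.8, 67.5, 158 and 158 in ex vivo CLP 1 to 4 and 161, 62.1, 75.9 and 77.3 in cCLP 1 to 4. The 4 low libraries were ex vivo CLP 2 and cCLP 2, 3 and 4, and no value lay between 77.3 and 134.8. Txnip was 2.08-fold lower over the 6 libraries (-1.06 ± 0.12, SE, limma adjusted p = 0.000264, and -0.48 ± 0.36 over 8 libraries). Txn1, cytosolic thioredoxin, was at 264 ± 47.1 (SD, n = 3) and 221 ± 12.3 (-0.24, interval -0.58 to 0.09, and -0.19 over 8 libraries). Txn2, its mitochondrial counterpart, was at 17.4 ± 6.43 and 20.4 ± 2.96 (0.27, interval -0.31 to 0.84, and 0.40 over 8 libraries), the widest interval among the uncalled members. Txnrd1, cytosolic thioredoxin reductase, was at 67.5 ± 8.52 and 61.1 ± 3.88 (-0.14, interval -0.40 to 0.13, and -0.02 over 8 libraries).

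Peroxiredoxins reduce peroxides through a reactive cysteine. Prdx6 and Prdx5 were called lower over the 6 libraries, and differences between members were not tested. Prdx6, the member that uses glutathione rather than thioredoxin (ENSMUSG00000026701, chromosome 1, 161240112 to 161251219, minus strand), was at 95.6, 68.6, 116 and 109 in ex vivo CLP 1 to 4. In cCLP 1 to 4 it was at 107, 67.4, 62.4 and 70.5. Without ex vivo CLP 2 and cCLP 1 the groups lay apart, and Prdx6 was 1.59-fold lower (-0.67 ± 0.11, SE, limma adjusted p = 0.00158, and -0.34 ± 0.21 over 8 libraries). Prdx5, found in mitochondria, peroxisomes and cytosol, was at 58.3 ± 9.63 (SD, n = 3) and 38.9 ± 3.64 (-0.56 ± 0.14, SE, limma adjusted p = 0.0129, and -0.35 ± 0.17 over 8 libraries), and its call ended with cCLP 2 left out (adjusted p = 0.0604).

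The 4 typical 2-cysteine peroxiredoxins were not called, and their groups overlapped. Prdx1, mainly cytosolic, was at 180.4 ± 26.4 (SD, n = 3) and 206 ± 26.0 (0.19, interval -0.14 to 0.53). Prdx2, abundant in red cells, was at 114.5 ± 5.48 and 120.5 ± 7.73 (0.07, interval -0.15 to 0.29). Prdx3, the mitochondrial member, was at 95.9 ± 5.71 and 104.1 ± 9.30 (0.12, interval -0.12 to 0.35), and Prdx4, the member of the endoplasmic reticulum, at 53.4 ± 11.8 and 46.7 ± 8.08 (-0.18, interval -0.60 to 0.23, and -0.19 over 8 libraries). Over the 8 libraries Prdx1, Prdx2 and Prdx3 had the other sign (-0.01, -0.03 and -0.04), so no direction is given for them.

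Among the superoxide dismutases and catalase, the catalase gene was called and both dismutase genes were not. Cat, which encodes the peroxisomal enzyme that splits hydrogen peroxide (ENSMUSG00000027187, chromosome 2, 103453849 to 103485160, minus strand), was at 61.3, 82.9, 66.8 and 63.9 in ex vivo CLP 1 to 4. It was at 69.8, 77.9, 80.7 and 82.3 in cCLP 1 to 4. The spread within each group of the 6 libraries was small, with factors of 1.09 and 1.06 between highest and lowest. Cat rose by a factor of 1.25 (0.32 ± 0.09, SE, limma adjusted p = 0.0182, and 0.18 ± 0.11 over 8 libraries), but with cCLP 2, 3 or 4 left out the adjusted p was 0.0675, 0.0715 or 0.0706. With a block for replicate number it was 0.170. Sod1, the cytosolic copper and zinc dismutase gene, was at 308 ± 83.7 (SD, n = 3) and 312 ± 34.4 (0.04, interval -0.40 to 0.48, and 0.09 over 8 libraries), and the mitochondrial Sod2 at 29.9 ± 4.14 and 32.1 ± 1.67 (0.11, interval -0.16 to 0.37, and 0.03 over 8 libraries).

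Glrx, which encodes the cytosolic glutaredoxin that removes glutathione from protein thiols (ENSMUSG00000021591, chromosome 13, 75839868 to 75850154, plus strand), was at 40.5, 23.2, 50.7 and 41.4 in ex vivo CLP 1 to 4. Its values in cCLP 1 to 4 were 44.0, 21.1, 23.1 and 22.9. High and low libraries were those of Txnip, with no value between 23.2 and 40.5. Glrx was 1.93-fold lower over 6 libraries (-0.95 ± 0.11, SE, limma adjusted p = 0.000343, and -0.49 ± 0.29 over 8 libraries). Gsr, Gstm1, Mgst3, Txnip, Prdx6 and Glrx were the 6 members called under each of the 15 alternative settings tried over the 6 libraries, with the limit on Mgst3 given above.

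The called members differed in how they varied beside the myeloid markers. Among ex vivo CLP 1, cCLP 1, ex vivo CLP 4 and ex vivo CLP 3, whose myeloid sums were 1450, 1749, 3081 and 3238, Gsr was at 20.8, 30.6, 46.5 and 47.0. Gstm1 was at 24.5, 33.5, 63.2 and 45.7 in the same order. Txnip was at 134.8, 161, 158 and 158 and Glrx at 40.5, 44.0, 41.4 and 50.7. These genes are a choice from the called members. In that order Prdx6 was at 95.6, 107, 109 and 116, and Prdx5 at 47.8, 51.6, 60.3 and 66.8. Mgst3, lower here than in the other libraries, was at 8.58, 11.5, 11.6 and 14.8. Hmox2, Gstp1 and Cat did not rise at each step. Among ex vivo CLP 1, 3 and 4 the highest value exceeded the lowest by a factor of 2.58 for Gstm1 and 2.25 for Gsr, and by 1.17 for Txnip, 1.25 for Glrx and 1.22 for Prdx6. The part of the myeloid markers in these differences was not tested.

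**Figure D3:**
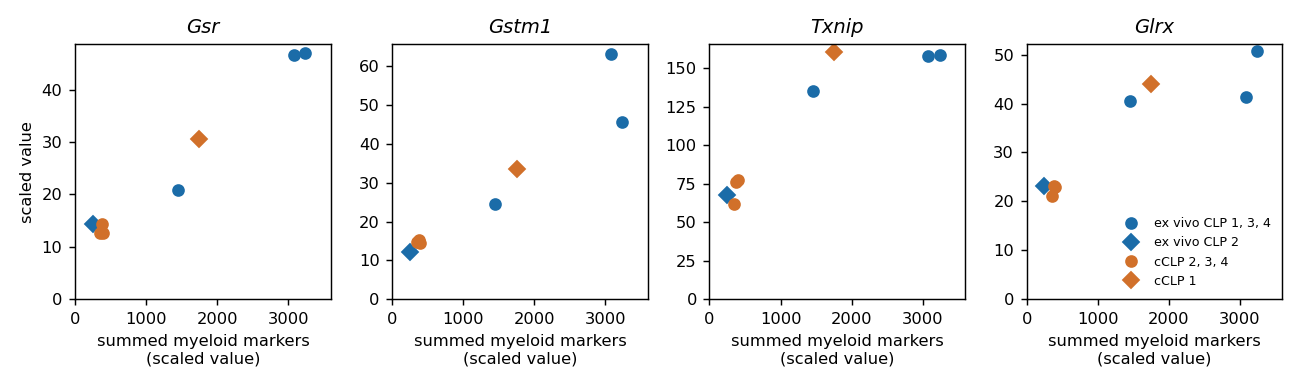
Scaled value of Gsr, Gstm1, Txnip and Glrx (y axes) against the summed scaled value of 15 myeloid markers (x axes), with 1 point per library. Gsr goes from 20.8 to 47.0 and Gstm1 from 24.5 to 63.2 over the 4 libraries with sums of 1450 or more, while Txnip stays between 134.8 and 161. Of the 15 markers, Fcgr3 was higher in the libraries with low sums.

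The other 12 members were too low to test, and their deposited values are a description. Gpx7, a peroxidase gene of the endoplasmic reticulum, had values of 4, 5 and 7 for ex vivo CLP 1, 3 and 4, of 5 for cCLP 1 and of 0 for the remaining 4 libraries. Mgst1, a membrane-bound transferase gene, was listed at 4, 12 and 16 and at 8 in those libraries, and likewise at 0 in the remaining 4. Nqo1, an NRF2 target that encodes a quinone reductase, was listed at 1, 2 and 3 and at 2, and again at 0 in the remaining 4. Gstm5, a mu class transferase gene, had 6, 6 and 10 for ex vivo CLP 1, 3 and 4 and 9 for cCLP 1, against 1 for ex vivo CLP 2 and 1, 1 and 2 for cCLP 2, 3 and 4. In all 4 genes the high libraries were ex vivo CLP 1, 3 and 4 and cCLP 1, as in the whole profiles, at low values.

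The remaining low members differed less in their deposited values, which are not scaled for the library. Nqo2, a second quinone reductase gene, was listed at 5 to 10 in ex vivo CLPs and 5 to 7 in cCLPs. Gclm, the modifier subunit of glutamate-cysteine ligase, was at 4 to 11 and 4 to 7, and Gss, glutathione synthetase, at 3 to 6 and 3 to 5. After scaling, the groups of the 6 libraries did not overlap for Nqo2, Gclm and Gss. Scaled Nqo2 was at 6.70 to 7.42 in ex vivo CLP 1, 3 and 4 and cCLP 1. It was at 4.80 to 5.53 in ex vivo CLP 2 and cCLP 2, 3 and 4. Hmox1, the inducible haem oxygenase gene and an NRF2 target, was at 1 to 3 and 2 to 3. Srxn1, which encodes sulfiredoxin and repairs overoxidised peroxiredoxins, was at 2 to 4 and 3 to 4. Txnrd2 and Glrx2, the mitochondrial reductase and glutaredoxin genes, were at 2 to 6 and 3 to 4, and at 2 to 5 and 4. Slc7a11, the cystine importer gene, was listed at no more than 1 in each library.

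With no filter on low values, limma over the 6 libraries called 7 of the 12 lower (Nqo1, Nqo2, Gclm, Gss, Gpx7, Gstm5 and Mgst1) and 0 higher, beside a background of 20.1% lower and 16.1% higher among 13755 genes. Mgst1, Gpx7 and Nqo1 had limma adjusted p = 0.00019, 1.72e-05 and 0.00164. For these 3 genes the values at 0 give no spread in cCLP 2, 3 and 4.

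**Figure D4:**
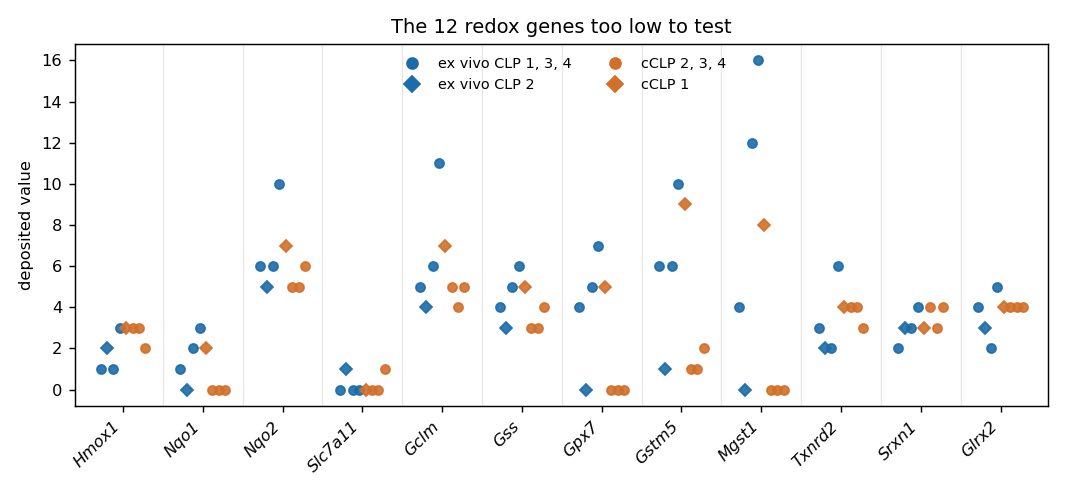
Deposited values of the 12 redox genes too low to test, with 1 point per library and diamonds for ex vivo CLP 2 and cCLP 1. Nqo1, Gpx7 and Mgst1 are at 0 in ex vivo CLP 2 and cCLP 2, 3 and 4 and above 0 in the other 4 libraries.

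NRF2 acts through the antioxidant response element, so promoters were read for its core, the letters TGACNNNGC on either strand. RefSeq windows (GRCm38.p6) of 300 bases, from 250 before to 50 after a gene start, were matched by symbol for 33 of the 37 genes. The core was present for 8 of the 33 genes (24.2%), beside 14.0% of all 27025 genes with a window. The genes were Nfe2l2, Srxn1, Gstm5, Gclm, Prdx1, Mgst1, Txnrd1 and Sod1. Of these, 4 were tested (Nfe2l2, Prdx1, Txnrd1 and Sod1) and 0 were called over 6 libraries. Of all 25 tested members 10 were called, beside 20.8% of 6573 genes called higher and 22.2% lower. Of the 4 too low to test, Gstm5, Mgst1 and Gclm were among those called lower with no filter on low values (limma adjusted p = 9.28e-05, 0.00019 and 0.0191), and Srxn1 was not. Of all 12 low members 7 were called lower, beside 20.1% of 13755 genes. The 10 called members had no such letters in a window or, for Gsr and Prdx6, were not matched. With so few genes and a share of 14.0% among all genes, no link between the core and the calls is drawn. The share with the core was not tested, and a match is a description of letters, not a binding site. The 4 matches shown lie upstream of a RefSeq start and come from 2 redox genes that were tested and not called (Prdx1 and Txnrd1) and 2 too low to test (Gstm5 and Mgst1), printed on the gene's strand with the match in capitals (GCNNNGTCA is the core on the other strand).
Prdx1 (chr4:116685454-116685486, plus strand): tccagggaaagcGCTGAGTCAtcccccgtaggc
Txnrd1 (chr10:82859102-82859134, plus strand): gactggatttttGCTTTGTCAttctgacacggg
Gstm5 (chr3:107895800-107895832, plus strand): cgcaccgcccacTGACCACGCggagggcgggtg
Mgst1 (chr6:138140459-138140491, plus strand): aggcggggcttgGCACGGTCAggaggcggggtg

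Other genes of the pathway went both ways. Of 99 genes in 5 further lists, 62 were tested over the 8 libraries, with 0 called. Over the 6 libraries 63 were tested, of which 10 were higher (15.9%), 15 lower (23.8%) and 38 not called, beside the background shares of 20.8% and 22.2%. Their median log2 fold change was -0.06. The filter on low values fixed the direction of 2 of the 10 higher and 4 of the 15 lower genes.

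Among other thiol redox and detoxification enzymes, 4 of 18 tested rose and 3 fell. Msrb3, a methionine sulfoxide reductase gene, rose from 6.21 ± 1.13 (SD, n = 3) to 21.5 ± 4.02, and Gstk1, the kappa class transferase gene, fell from 13.4 ± 0.273 to 0.320 ± 0.555 (limma adjusted p = 0.000164 and 3.33e-05). Among other NRF2 partners and targets, 1 of 14 rose and 5 fell (Cbr1, Bach1, Slc3a2, Mafk and Aldh2). Bach1 fell from 24.3 ± 7.36 to 11.7 ± 0.193 and Mafk from 57.4 ± 8.94 to 33.5 ± 2.08 (limma adjusted p = 0.00775 and 0.00227). Their log2 fold changes over the 8 libraries were -0.48 and -0.33. Rbx1, part of the ligase complex that KEAP1 recruits, rose from 59.9 ± 3.92 to 72.6 ± 1.36, and Cbr1, a carbonyl reductase gene, fell from 19.2 ± 3.72 to 4.76 ± 1.74 (limma adjusted p = 0.04 and 0.000592). Over the 8 libraries the log2 fold changes were -2.03 for Gstk1, 0.07 for Rbx1 and -0.87 for Cbr1, and Msrb3 was not tested. Msrb3, Gstk1 and Cbr1 were below 10 in each library of a group, so the filter fixed their direction.

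Genes that supply NADPH, the electron source of both systems, showed 2 of 11 higher and 2 lower. Nnt, the mitochondrial transhydrogenase gene, rose 2.06-fold from 26.2 ± 0.606 (SD, n = 3) to 54.9 ± 0.247, and Mthfd2, a mitochondrial folate enzyme gene, fell from 17.05 ± 3.44 to 8.55 ± 0.897 (limma adjusted p = 3.54e-05 and 0.00265), its direction again fixed by the filter. Of 6 tested NADPH oxidase subunits, which produce superoxide, 1 rose and 2 fell. Cyba, the membrane subunit p22phox, rose from 107.8 ± 11.6 to 181 ± 14.0, and Ncf1, the cytosolic subunit p47phox, fell from 89.0 ± 5.18 to 40.4 ± 5.76 (limma adjusted p = 0.00145 and 0.000162). Among selenoproteins and the factors that make them, 2 of 14 rose and 3 fell. Selenow rose from 152 ± 12.4 to 249 ± 20.1, and Trnau1ap, a selenocysteine tRNA factor gene, fell from 16.9 ± 2.92 to 6.89 ± 0.678 (limma adjusted p = 0.00158 and 0.000492), with the direction of Trnau1ap fixed by the filter. The other gene that rose, Pstk, which encodes a selenocysteine tRNA kinase, also had its direction fixed by the filter (8.41 ± 0.362 to 12.4 ± 1.23). Over the 8 libraries the log2 fold changes of Nnt, Mthfd2, Cyba, Ncf1, Selenow and Trnau1ap were 0.55, -0.48, 0.38, -0.37, 0.35 and -0.61 in that order.

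**Figure D5:**
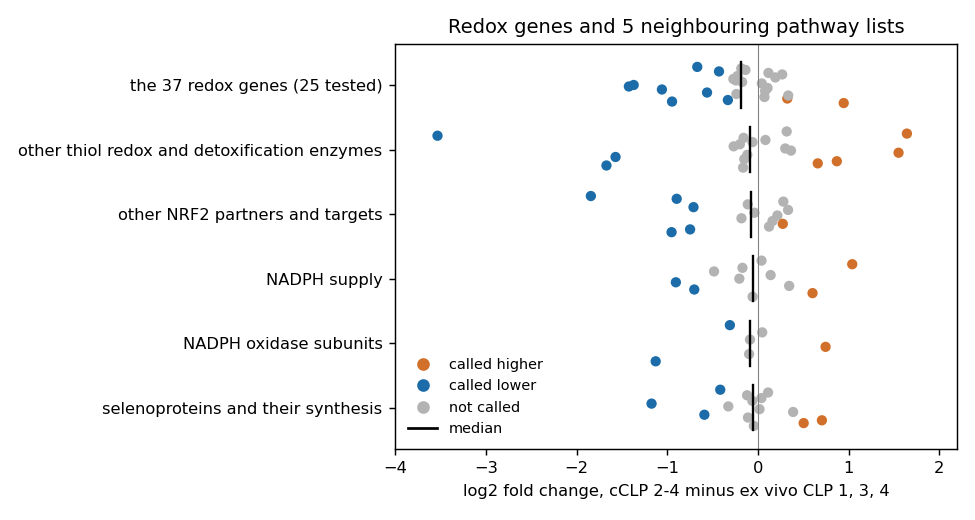
Log2 fold changes over the 6 libraries for the 25 tested redox genes and 5 neighbouring lists, with 1 point per gene, coloured where called, and a black bar at each list's median. The medians lie between -0.18 and -0.05, and each list holds genes called in both directions.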

How the data were processed

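RNA was measured in 8 libraries by stranded total RNA sequencing after removal of ribosomal RNA. The submitters' processing notes name TopHat2, Bowtie2 and HTSeq 1.0.6 with GRCm38 (mm10); their roles, the strand setting, the annotation and any later scaling are not given in the sources used here. The deposited values are whole numbers, 1 for each Ensembl ID, and were taken as a score. For genes with mean values of 5 to 50, the dispersion index was 0.540 between ex vivo CLP 3 and 4 and 0.260 between cCLP 3 and 4, below the 1 of read counts with Poisson noise, so no count model was used and no counting interval can be given. No libraries were identical.

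The scaling factors are trimmed means of M values, computed here (30% of ratios and 5% of levels trimmed). Linear models of log2(scaled value + 1) were fitted to all tested genes with limma 3.58.1 in R 4.3.3 (mean-variance trend, robust moderation, two-sided, Benjamini-Hochberg over all genes) and tested on simulated data. Symbols came from GENCODE vM21 (37607 IDs matched). Figures used Python 3.11.15 and matplotlib 3.10.9. All 37 members are named. Values in each library are given for the called member of each role with the largest change up or down over the 6 libraries; of each further list, the called gene with the largest change each way is named. The choice of the sequences printed was made after the matches were seen. The members, the lists and the 6 libraries were chosen with earlier results of these data known. Genes overlapping a coding gene on the other strand (among the called members Hmox2 and Prdx5) or with named copies (Prdx2, Prdx6, Txn1 and Gpx4), and the Gstm and Gstp families, may share reads. A protein sequence comparison was planned and not made. Alternatives were other scalings, added constants and filters, plain moderation, a replicate block and leaving out each library.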

Additional observations from a re-analysis of the deposited data

Results flagged for a closer look

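Among 52 groups of 4 libraries looked at (each tested member and the share held by all members, in each labelled group), 4 had a library far from the other 3 of its label. Chance alone flags about 5% of independent groups, but these share their libraries, so that rate gives no test. In each the library was cCLP 1, already set aside for its profile, so these flags are a description and no new evidence. Gsr was at a scaled value of 30.6 there, against 12.6 to 14.4 in cCLP 2, 3 and 4. Gstm1 was at 33.5 against 14.4 to 15.4, Txnip at 161 against 62.1 to 77.3, and Glrx at 44.0 against 21.1 to 23.1. The other labelled group had no library so far out.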

How the results depend on the processing

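Over 8 libraries, 0 genes were called under each of 17 alternatives that kept at least 7 libraries, the replicate block among them. With ex vivo CLP 2 and cCLP 1 both left out, 1369 genes were higher and 1459 lower, 2 and 8 of them members. Of 425 member fold changes under the 17 alternatives, 20 changed sign, all of uncalled members. Prdx1 was 0.016 with upper quartile scaling, 0.030 with total scaling and 0.19 without both libraries (-0.12 to 0.10 with each library left out). Prdx2 was 0.00066, 0.014 and 0.072 (-0.088 to 0.043), Txnrd1 0.0085 and 0.022 under both scalings (-0.10 to 0.048), and Prdx3 0.0043 with total scaling and 0.12 without both (-0.12 to 0.079). Sod1 and Sod2 ranged from -0.017 to 0.22 and from -0.045 to 0.083 with each library left out.

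Over 6 libraries, no filter gave 2216 genes higher and 2761 lower, 15 of the latter members. Left out in turn, single libraries gave 889 (without cCLP 4) to 1584 genes higher (without ex vivo CLP 1) and 1 to 3 members higher; Nfe2l2 ranged from -0.13 to 0.19, Txn2 from -0.0033 to 0.51 and Sod1 from -0.13 to 0.24. Gsto1 was called with upper quartile (adjusted p = 0.0320) or total scaling (0.0141) or without ex vivo CLP 3 (0.0314), Keap1 (0.0454) and Txn1 (0.0225) without ex vivo CLP 1. With the replicate block 1 member was higher and 6 lower, the calls of Hmox2 (adjusted p = 0.274), Gstp1 (0.0969) and Cat (0.170) ended, and Nfe2l2 and Sod1 were at -0.11 each. Over the 6 libraries the groups share only numbers 3 and 4, so the block fit compares only those libraries. The labels tie a number to nothing, so whether numbers pair the libraries could not be checked there. Over 8 libraries, same-numbered deviations correlated at 0.595, 0.843, -0.575 and -0.86, signs that ex vivo CLP 2 and cCLP 1 impose through the group means, so this check is void. The cause of these shifts was not tested, and depth is unknown.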

Other observations

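Genes of the methionine sulfoxide reductases, which repair oxidised methionine with electrons from thioredoxin, differed in direction over the 6 libraries. They were picked out here after their values were seen. Msra fell from a scaled value of 53.3 ± 3.69 (SD, n = 3) across ex vivo CLP 1, 3 and 4 to 17.4 ± 2.44 across cCLP 2, 3 and 4, and Msrb1, a selenoprotein gene, from 34.9 ± 10.1 to 10.97 ± 5.36. Msrb2, which encodes a mitochondrial member, rose from 22.3 ± 3.43 to 35.7 ± 4.49. Limma adjusted p was 2.62e-05 for Msra, 0.0132 for Msrb1 and 0.00684 for Msrb2. By its mean and SD, Msrb1 did not reach 10 in each of cCLP 2, 3 and 4. It could be tested only through ex vivo CLP 1, 3 and 4, where it was high, so its call is not independent of the filter. Sesn1, a p53 target that encodes a sestrin, rose from 43.2 ± 16.8 to 122.8 ± 3.93 (log2 fold change 1.55 ± 0.23, SE, limma adjusted p = 0.00116). Over the 8 libraries as labelled none of these 4 was called, with log2 fold changes of -0.74 for Msra, -1.04 for Msrb1, 0.30 for Msrb2 and 0.81 for Sesn1.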
